A study of Mus musculus with 49 samples.

Results

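The set described here holds 7 deposited gene symbols: Ndufs5 and BC002163, Eno1 and Gm5506, Rpl29, Rps3a and Rprl3. They are 7 of 22869 measured symbols, each with 1 transcript row in every table. They were picked by name, after their difference between the strains was known, as genes that have copies elsewhere in the mouse genome. The values that chose them are therefore the strain differences, which are given below as a description with no test, whereas the responses to rosiglitazone and the differences between fat depots played no part in the choice and were tested.

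The study measured mRNA by RNA-seq in white fat of 129S1/SvImJ and C57BL/6 mice. Epididymal fat (eWAT) came from chow-fed mice, 5 libraries of 129S1/SvImJ and 5 of C57BL/6. A second experiment had 4 eWAT libraries of each strain from mice that ate the D12450B low fat diet for 10 weeks from 6 weeks of age and then the same diet with rosiglitazone, a PPARγ agonist, at 36 mg per kg of diet for 2 weeks, against 4 of each strain kept on the diet without drug to 18 weeks. The last experiments used mice on the low fat diet for 12 weeks, with 4 libraries of 129S1/SvImJ and 4 of C57BL/6 from inguinal fat (iWAT), and 4 of 129S1/SvImJ and 5 of C57BL/6 from eWAT. No label says whether a library came from 1 mouse or from pooled mice, and the spread behind each p-value is that between libraries, which may be technical. The 5 libraries of F1 mice on chow and 1 nascent-RNA library were not analysed here.

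Ndufs5 encodes a small accessory subunit of complex I, the NADH dehydrogenase of the mitochondrial respiratory chain, and BC002163 is annotated as its processed pseudogene. Eno1 encodes enolase 1 of glycolysis, and Gm5506, called Eno1b by RefSeq and GENCODE, is a copy with an open reading frame. Rpl29 and Rps3a encode proteins of the large and the small ribosomal subunit. Rprl3 is a gene resembling Rpph1, which makes the RNA of ribonuclease P, the ribozyme that trims the leader from precursor tRNAs. Processed pseudogenes arise when an mRNA is copied back into the genome, and ribosomal protein genes have many of them.

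The first 180 coding bases of Ndufs5 and the matching stretch of BC002163 are shown because the parent and its copy are almost the same letter for letter. Ndufs5 is on the minus strand of chromosome 4 and BC002163 on the plus strand of chromosome 16 in GRCm38. Positions count from 1 at the A of the Ndufs5 start codon, and capitals mark the bases that differ.
Ndufs5: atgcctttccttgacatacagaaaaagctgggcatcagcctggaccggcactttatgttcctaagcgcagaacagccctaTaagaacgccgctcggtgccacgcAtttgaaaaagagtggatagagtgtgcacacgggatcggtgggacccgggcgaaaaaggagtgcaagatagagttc
BC002163: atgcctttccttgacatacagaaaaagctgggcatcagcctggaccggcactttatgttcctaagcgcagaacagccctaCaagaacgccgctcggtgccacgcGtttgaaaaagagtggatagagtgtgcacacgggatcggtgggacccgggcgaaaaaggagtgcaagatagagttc
Over all 319 aligned bases 317 were identical, an identity of 99.4%, and the only substitutions were T81C and A105G, both at codon position 3 and both within the stretch shown. The alignment covers all but the end of the Ndufs5 coding sequence of 321 bases with its stop codon. These are sequences of the C57BL/6 reference genome, from GENCODE transcripts, and no 129S1/SvImJ sequence was used here.

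Eno1 lies on the plus strand of chromosome 4 and Gm5506 on chromosome 18. Their coding sequences, 1305 bases each with the stop codon, had 8 mismatches and no gap, an identity of 99.4%. Windows of 50 bases gave a common measure of how much of each transcript is also present, letter for letter, in the transcript of another gene. By that measure 41.2% of the Ndufs5 transcript was shared, and BC002163 was the only gene sharing it. The share was 72.6% for BC002163, 72.2% for Eno1 and 84.5% for Gm5506. Besides each other, Eno1 and Gm5506 shared windows with the same number of pseudogenes, 8 each, of which the one with the largest share, Gm4735 on chromosome 2, held 52.8% of the windows of Eno1 and 66.0% of those of Gm5506.

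The ribosomal protein genes shared sequence mainly with pseudogenes. Rpl29, on the plus strand of chromosome 9, shared 66.2% of its windows with 82 other genes, 81 of them pseudogenes, spread over 20 chromosomes. Of those 82, the tables listed 3: Gm8580, 4931440P22Rik and Gm10548. Rps3a, which RefSeq calls Rps3a1, is on the minus strand of chromosome 3 and shared 659 of its 928 windows with 9 pseudogenes, none of them in the tables, so that no comparison of parent and copy could be made for it. For Rpl29 none was made, since the 3 listed genes each held 3.2% to 5.8% of its windows. A second measure counted coding bases that lie in any shared window, and it runs higher than the share of windows by construction. All 483 coding bases of Rpl29 lay in a shared window, as did 99.9% of the coding bases of Rps3a, 99.0% of those of Eno1 and 91.6% of those of Ndufs5.

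The second pair of sequences is shown because Rprl3 was not a near-identical copy of Rpph1. Rprl3 is on the minus strand of chromosome 8 and Rpph1 on the minus strand of chromosome 14. Capitals mark mismatched bases and, in Rpph1, also the bases with no partner in Rprl3.
Rprl3: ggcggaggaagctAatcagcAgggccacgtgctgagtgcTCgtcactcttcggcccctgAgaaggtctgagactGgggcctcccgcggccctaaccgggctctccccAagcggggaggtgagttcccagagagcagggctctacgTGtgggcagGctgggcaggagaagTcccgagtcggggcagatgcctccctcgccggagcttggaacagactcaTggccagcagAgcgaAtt
Rpph1: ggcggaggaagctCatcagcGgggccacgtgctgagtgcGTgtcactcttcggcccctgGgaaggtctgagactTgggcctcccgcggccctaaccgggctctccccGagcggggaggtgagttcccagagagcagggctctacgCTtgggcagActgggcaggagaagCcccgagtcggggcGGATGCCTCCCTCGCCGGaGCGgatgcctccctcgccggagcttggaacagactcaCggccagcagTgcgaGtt
Over this stretch 222 bases were identical, 14 were mismatched and 21 Rpph1 bases had no partner, an identity of 86.4%. Rprl3 shared 7 of its 241 windows of 50 bases, 2.9%, all with Rprl2 on chromosome 3, and none with Rpph1. With windows of 36 bases it shared 21 of 255 with Rprl2 and 2 with Rpph1. On these sequences Rprl3 does not belong with the other 6 as a gene with a near-identical copy, and it is described as an Rpph1-like gene.

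Libraries that stand apart were found in both strains. None of the 8 adipocyte marker genes was at the floor throughout any group, but their sum was 17760 in 1 of the 129S1/SvImJ chow libraries, whose group median was 132103. The adipocyte gene Adipoq was 2402 in 129S1/SvImJ chow replicate 2, against 11641 to 20038 in the other chow libraries of both strains. That replicate also had the highest sum of the epididymal genes given below. The 7 endothelial markers had a lower median sum in 129S1/SvImJ in all 5 comparisons, 2702 against 4863 in C57BL/6 on chow, 2478 against 3787 on the rosiglitazone diet, 2272 against 4095 on the control diet, 2916 against 4078 in iWAT and 2200 against 5013 in 12-week eWAT, and the strains' libraries overlapped on the rosiglitazone diet alone. The 6 lymphocyte markers reached 9050 in 1 library of 129S1/SvImJ iWAT and 3591 in 1 of C57BL/6 iWAT. The 6 skeletal muscle markers reached 10411 in 1 library of C57BL/6 12-week eWAT, whose group median was 211. They were at most 424 in 129S1/SvImJ 12-week eWAT. Their highest sums were 2205 in 129S1/SvImJ chow, 2138 in 129S1/SvImJ iWAT and 1550 in C57BL/6 iWAT. The part of these markers in the results below was not tested. The 6 epididymal secretory genes summed to 33996 and 201451 in 129S1/SvImJ chow replicates 1 and 2, against 82 to 95 in the other 129S1/SvImJ chow libraries and 37 to 135 in C57BL/6 chow libraries. Without those 2 libraries the chow differences described below kept their signs, with log2 fold changes of -3.03 for Ndufs5, 3.90 for BC002163, -1.33 for Eno1, 4.37 for Gm5506, -4.78 for Rpl29, -3.99 for Rps3a and 7.62 for Rprl3, while the number of symbols called on chow was 2597 in place of 1142. The C57BL/6 iWAT libraries had 467 to 679 distinct values each and 32.1% to 37.7% of transcript rows at the floor, against 1293 to 1865 distinct values and 15.2% to 27.2% at the floor in all other libraries. In bulk tissue, fewer cells of a type and less RNA per cell cannot be told apart.

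In each of the 5 strain comparisons, the 129S1/SvImJ and C57BL/6 libraries did not overlap for any of the 7 genes. The same was true of 7.62% of all symbols on chow, 13.2% on the rosiglitazone diet, 17.6% on the control diet, 7.78% in 12-week iWAT and 21.1% in 12-week eWAT. Since the genes were chosen for this contrast, nothing is read from that count. Ndufs5, Eno1, Rpl29 and Rps3a were lower in 129S1/SvImJ in all 5, and BC002163, Gm5506 and Rprl3 were higher in all 5. Values are the authors' normalized values, which have a floor of 1 and no unit of their own. A log2 fold change is of value + 1 and runs 129S1/SvImJ over C57BL/6. How reads that match both a gene and its copies were assigned is not known, and no 129S1/SvImJ sequence was used here. A low value is therefore not shown to be a lack of the mRNA. The part of read assignment in these strain differences was not tested.

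**Figure D1:**
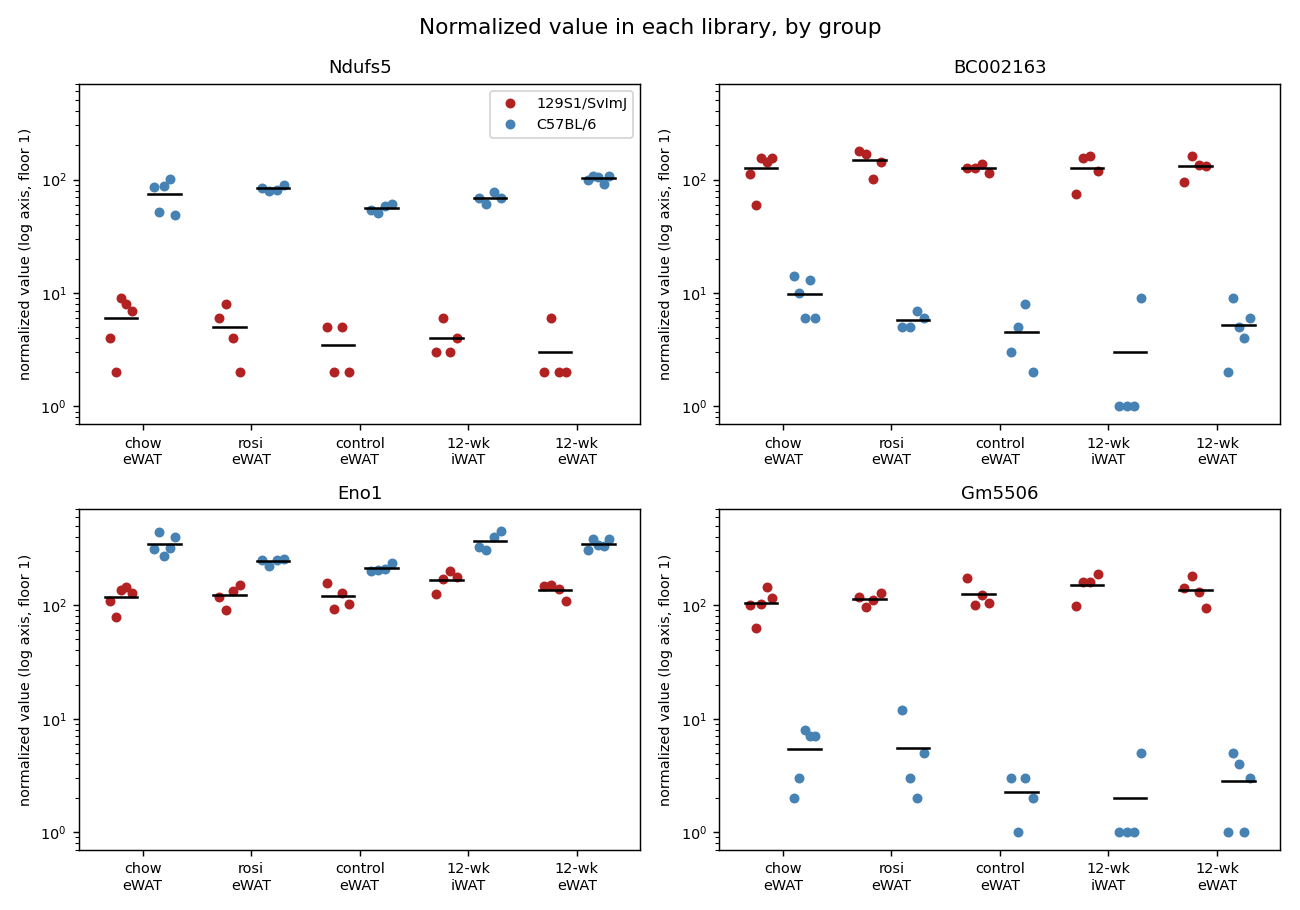
Normalized value (log axis) of Ndufs5, BC002163, Eno1 and Gm5506 in each library. Each point is 1 library, the bar is the group mean, and each condition has 129S1/SvImJ at left and C57BL/6 at right. Ndufs5 stayed at 9 or below in every 129S1/SvImJ library, and Gm5506 at 12 or below in every C57BL/6 library.

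Ndufs5 was near the floor in 129S1/SvImJ fat under every condition. On chow it had values of 4, 2, 9, 8 and 7 in 129S1/SvImJ, against 86, 52, 87, 102 and 49 in C57BL/6. With rosiglitazone the values were 6, 8, 4 and 2 in 129S1/SvImJ and 84, 79, 81 and 90 in C57BL/6. The highest 129S1/SvImJ library of either group was thus well under the lowest C57BL/6 library.
On the control diet Ndufs5 had 5, 2, 5 and 2 in 129S1/SvImJ, against 54, 51, 59 and 61 in C57BL/6. In iWAT it had 3, 6, 3 and 4 in 129S1/SvImJ, against 69, 61, 77 and 69 in C57BL/6. After 12 weeks, its eWAT values were 2, 6, 2 and 2 in 129S1/SvImJ, against 99, 107, 106, 92 and 108 in C57BL/6. Every 129S1/SvImJ library was in single digits. The tables of the chow, drug and 12-week experiments were normalized apart, so levels are not compared between them. The log2 fold change was -3.51 ± 0.37 (SE) on chow and -4.80 ± 0.27 in 12-week eWAT, with the other comparisons between them.

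BC002163, the pseudogene, had the mirror-image pattern. On chow its values were 113, 60, 155, 144 and 156 in 129S1/SvImJ, against 14, 10, 6, 13 and 6 in C57BL/6. With rosiglitazone they were 177, 168, 101 and 143 in 129S1/SvImJ, against 5, 5, 7 and 6 in C57BL/6. Without it they were 127, 127, 137 and 114 in 129S1/SvImJ, against 3, 5, 8 and 2 in C57BL/6. No 129S1/SvImJ library fell below 60 and no C57BL/6 library passed 14.
In iWAT BC002163 had 74, 156, 161 and 119 in 129S1/SvImJ, against 1, 1, 1 and 9 in C57BL/6. The 12-week eWAT libraries had 96, 160, 134 and 132 in 129S1/SvImJ, against 2, 9, 5, 4 and 6 in C57BL/6. Its log2 fold change lay between 3.55 ± 0.34 on chow and 5.36 ± 0.62 (SE) in iWAT, where 3 of the 4 C57BL/6 libraries were at the floor.

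Enolase differed from the complex I pair in that the parent was still well above the floor in 129S1/SvImJ. Eno1 had 109, 79, 136, 146 and 127 on chow in 129S1/SvImJ, against 314, 440, 273, 322 and 397 in C57BL/6. Under rosiglitazone Eno1 had 119, 91, 133 and 152 in 129S1/SvImJ, against 249, 222, 253 and 256 in C57BL/6. On the control diet it had 158, 92, 129 and 102 in 129S1/SvImJ, against 201, 206, 210 and 238 in C57BL/6. The gap between the groups was narrowest here, from 158 to 201.
In iWAT Eno1 had 125, 170, 201 and 176 in 129S1/SvImJ, against 327, 307, 397 and 447 in C57BL/6. The 12-week eWAT values were 149, 151, 139 and 110 in 129S1/SvImJ, against 307, 382, 339, 336 and 382 in C57BL/6. Its log2 fold change lay between -1.55 ± 0.19 on chow and -0.85 ± 0.15 (SE) on the control diet, the smallest of the 7 genes in every comparison.

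Gm5506 was near the floor in C57BL/6. On chow it had 101, 63, 103, 145 and 115 in 129S1/SvImJ, against 2, 3, 8, 7 and 7 in C57BL/6. Under rosiglitazone it had 119, 97, 112 and 129 in 129S1/SvImJ, against 12, 3, 2 and 5 in C57BL/6. Without the drug it had 173, 101, 123 and 105 in 129S1/SvImJ, against 3, 1, 3 and 2 in C57BL/6. Every 129S1/SvImJ library was far above every C57BL/6 library.
In iWAT Gm5506 had 98, 160, 162 and 189 in 129S1/SvImJ, against 1, 1, 1 and 5 in C57BL/6. Its 12-week eWAT values were 143, 181, 132 and 94 in 129S1/SvImJ, against 1, 5, 4, 1 and 3 in C57BL/6. The log2 fold change lay between 4.13 ± 0.36 on chow and 5.82 ± 0.44 (SE) in iWAT.

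Parent and copy were then combined, as the copy's share of the summed value and as the sum itself. No source used here says that values were divided by transcript length, so a share is set against the same share in other libraries and is no comparison of level between the genes of a pair. BC002163 made up 95.7% ± 1.03 of the Ndufs5 and BC002163 sum on chow in 129S1/SvImJ, against 11.8% ± 3.65 in C57BL/6 (SD, n = 5 each). Across all conditions the share ran from 94.5% to 98.6% in 129S1/SvImJ libraries, and from 1.28% to 16.1% in C57BL/6 libraries. Gm5506 made up 46.6% ± 2.77 of the Eno1 and Gm5506 sum on chow in 129S1/SvImJ, against 1.60% ± 0.95 in C57BL/6 (SD, n = 5 each). Across all conditions it ran from 43.1% to 54.5% in 129S1/SvImJ, and from 0.251% to 4.60% in C57BL/6. Each pair thus had its own share in each strain, with no overlap between the strains under any diet, drug or depot. Within each comparison this follows by arithmetic, since every parent was lower and every copy higher without overlap. Nothing further is read from it.

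The sums differed between the strains less than either part did. Parent and copy were chosen with their strain differences known and went opposite ways. The fold of a sum is then held between the folds of its parts, so the smaller difference is given only as a description. The Eno1 and Gm5506 sum averaged 225 ± 54.7 on chow in 129S1/SvImJ and 355 ± 66.7 in C57BL/6 (SD, n = 5 each). On the rosiglitazone diet it averaged 238.0 ± 38.3 in 129S1/SvImJ and 251 ± 17.2 in C57BL/6, and on the control diet 246 ± 62.2 in 129S1/SvImJ and 216 ± 16.4 in C57BL/6 (SD, n = 4 each). In iWAT it averaged 320 ± 66.8 in 129S1/SvImJ and 372 ± 66.1 in C57BL/6 (SD, n = 4 each). In 12-week eWAT it averaged 275 ± 53.5 in 129S1/SvImJ and 352 ± 33.7 in C57BL/6 (SD, n = 4 and 5). The strains' libraries overlapped in all 5 comparisons, and the fold of the sum, 129S1/SvImJ over C57BL/6, lay between 0.627 and 1.11, on the log2(sum + 1) scale. It was 0.341 to 0.554 for Eno1 alone and 17.55 to 56.63 for Gm5506 alone.

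The Ndufs5 and BC002163 sum was higher on average in 129S1/SvImJ throughout. It averaged 132 ± 43.3 on chow in 129S1/SvImJ and 85.0 ± 25.6 in C57BL/6 (SD, n = 5 each), with overlapping libraries. On the rosiglitazone diet it averaged 152 ± 35.6 in 129S1/SvImJ and 89.2 ± 4.99 in C57BL/6, and on the control diet 130 ± 10.7 in 129S1/SvImJ and 60.8 ± 5.19 in C57BL/6 (SD, n = 4 each). These were the comparisons whose libraries did not overlap. In iWAT the sum averaged 132 ± 40.9 in 129S1/SvImJ and 72.0 ± 7.66 in C57BL/6 (SD, n = 4 each), and in 12-week eWAT 134 ± 27.8 in 129S1/SvImJ and 108 ± 8.68 in C57BL/6 (SD, n = 4 and 5), again with overlap. The fold of the sum lay between 1.22 and 2.12, against 11.7 to 41.1 for BC002163 alone and 0.0359 to 0.0876 for Ndufs5 alone.

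**Figure D2:**
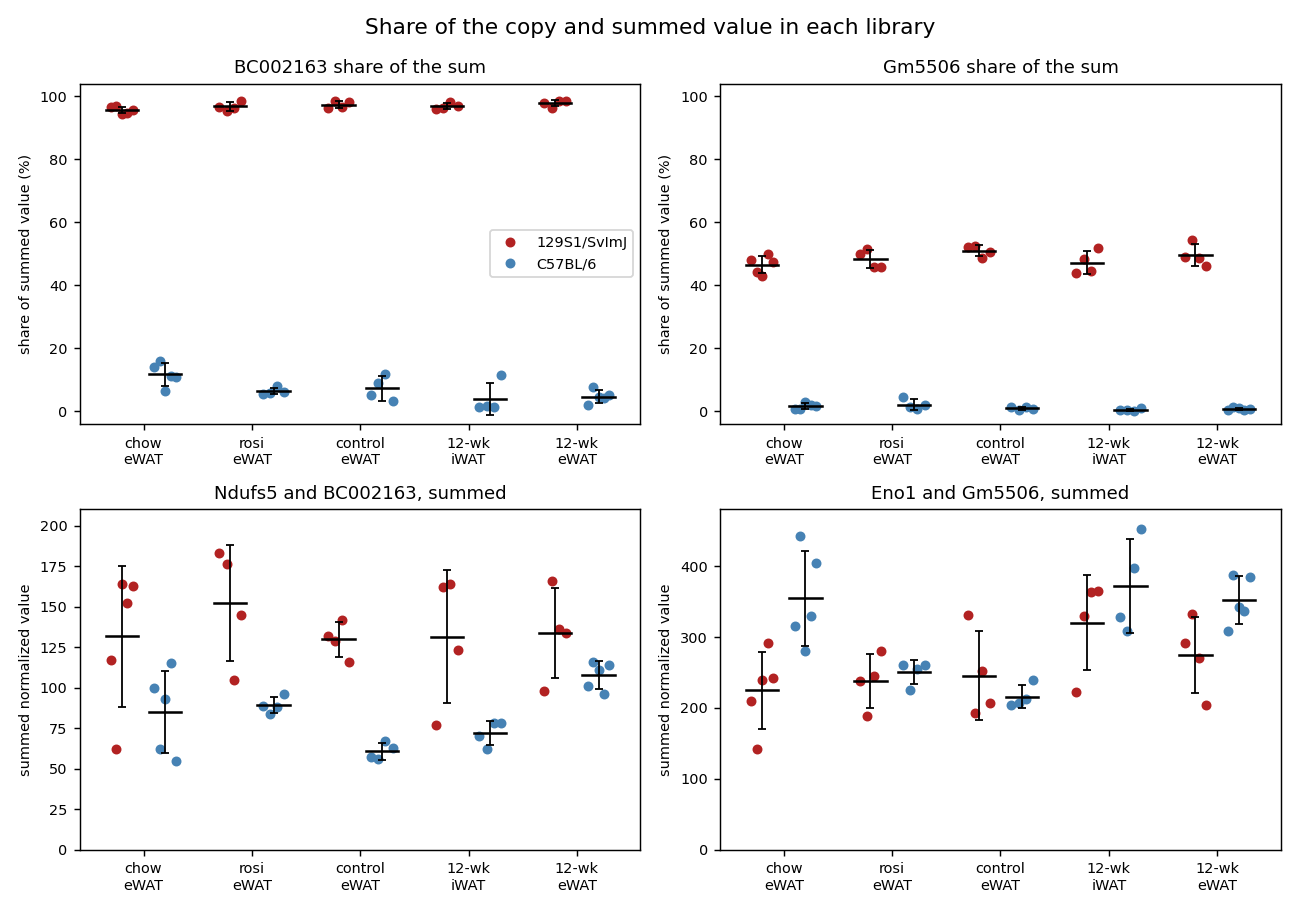
Share of the copy in the summed value of each pair (top, %) and the summed normalized value (bottom). Each point is 1 library, bars are the group mean and SD, and each condition has 129S1/SvImJ at left and C57BL/6 at right. The shares form a separate band for each strain, 94.5% to 98.6% against 1.28% to 16.1% for BC002163, whereas the Eno1 and Gm5506 sums overlap in every condition. Within each condition the separation of the shares follows by arithmetic from that of parent and copy.

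Rpl29 was in single digits in every 129S1/SvImJ library. On chow it had 2, 2, 4, 8 and 2 in 129S1/SvImJ, against 125, 156, 135, 145 and 139 in C57BL/6. With the drug it had 3, 1, 4 and 5 in 129S1/SvImJ, against 97, 110, 98 and 114 in C57BL/6. Without the drug it had 3, 5, 2 and 2 in 129S1/SvImJ, against 113, 90, 78 and 111 in C57BL/6. The 129S1/SvImJ libraries sat at or just above the floor in all of them.
In iWAT Rpl29 had 4, 2, 3 and 4 in 129S1/SvImJ, against 76, 77, 41 and 39 in C57BL/6. In 12-week eWAT it had 2, 4, 2 and 7 in 129S1/SvImJ, against 173, 184, 220, 183 and 198 in C57BL/6. Its log2 fold change ran from -5.46 ± 0.30 in 12-week eWAT to -3.76 ± 0.31 (SE) in iWAT.

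Rps3a was lower in 129S1/SvImJ but stayed above the floor. On chow it had 13, 5, 16, 18 and 26 in 129S1/SvImJ, against 305, 357, 305, 292 and 382 in C57BL/6. With the drug it had 7, 9, 12 and 10 in 129S1/SvImJ, against 184, 221, 207 and 226 in C57BL/6. On the control diet it had 11, 14, 7 and 14 in 129S1/SvImJ, against 186, 242, 210 and 176 in C57BL/6. The lowest C57BL/6 library was several times the highest 129S1/SvImJ library in each.
In iWAT Rps3a had 13, 14, 16 and 13 in 129S1/SvImJ, against 183, 149, 269 and 222 in C57BL/6. In 12-week eWAT it had 14, 6, 10 and 11 in 129S1/SvImJ, against 248, 281, 309, 235 and 249 in C57BL/6. Its log2 fold change had the narrowest range of the 6 large ones, from -4.61 ± 0.21 in 12-week eWAT to -3.76 ± 0.19 (SE) in iWAT.

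Rprl3 had the largest absolute log2 fold change of all 22869 symbols in 4 of the 5 strain comparisons and ranked 2 in 12-week eWAT. On chow its values were 536, 541, 767, 826 and 558 in 129S1/SvImJ, against 2, 3, 4, 1 and 4 in C57BL/6. On the rosiglitazone diet they were 956, 748, 664 and 833 in 129S1/SvImJ, against 7, 9, 9 and 5 in C57BL/6. On the control diet they were 781, 721, 492 and 532 in 129S1/SvImJ, against 6, 1, 4 and 7 in C57BL/6. In these eWAT groups the 129S1/SvImJ libraries were all at 492 or above and the C57BL/6 libraries all in single digits.
In iWAT Rprl3 had 1320, 453, 613 and 996 in 129S1/SvImJ, against 8, 1, 1 and 1 in C57BL/6. In 12-week eWAT it had 87, 494, 400 and 588 in 129S1/SvImJ, against 2, 2, 3, 2 and 1 in C57BL/6. The library at 87 was the lowest of its group and was still above the highest C57BL/6 library, at 3. The log2 fold change ran from 6.58 ± 0.32 on the rosiglitazone diet to 8.06 ± 0.63 (SE) in iWAT.

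Rpph1, the ribonuclease P RNA itself, had high values in both strains. It averaged 5070 ± 678 on chow in 129S1/SvImJ and 7023 ± 2958 in C57BL/6 (SD, n = 5 each). It was lower in 129S1/SvImJ in all 5 comparisons and passed the test on the control diet, with a log2 fold change of -0.82 ± 0.22 (SE; limma adjusted p = 0.0171), and in 12-week eWAT, with -2.85 ± 0.73 (limma adjusted p = 0.0301). On the rosiglitazone diet it did not pass (limma adjusted p = 0.0897). Neither call was firm: the control-diet call was lost without 129S1/SvImJ control replicate 3 (limma adjusted p = 0.0545), and the 12-week call was lost without any 1 of the 5 C57BL/6 libraries or without 129S1/SvImJ replicate 3 (limma adjusted p = 0.0515 to 0.0691). In 12-week eWAT the 129S1/SvImJ values were 422, 3487, 3307 and 4878, against 15104, 11814, 27028, 12799 and 16663 in C57BL/6, so that the library low in Rprl3 was also the lowest in Rpph1.
Set against Rpph1 in the same library, Rprl3 still separated the strains. Rprl3 was chosen for this difference and Rpph1 differed far less, so the ratio could hardly do otherwise. Per 1000 of Rpph1 value, Rprl3 ran from 98.2 to 206 in the 129S1/SvImJ libraries of all conditions, against 0.0600 to 1.09 in the C57BL/6 libraries. The 129S1/SvImJ library at 206 was the one with the low Rpph1 value. Of the other members of this family, Rprl2 had 1 to 18 in 129S1/SvImJ and 1 or 2 in C57BL/6, and Rprl1 had 1 to 5 in 129S1/SvImJ and 1 to 3 in C57BL/6. Rmrp, of the related ribonuclease MRP, had log2 fold changes of -0.63 on chow (limma adjusted p = 0.342), -0.91 on the rosiglitazone diet (limma adjusted p = 0.00026) and -0.64 on the control diet (limma adjusted p = 0.00368). They were -0.97 in 12-week eWAT (limma adjusted p = 0.226) and 0.34 in iWAT. Rmrp was 1324 in the library where Rpph1 was 422. A lower value in 129S1/SvImJ was thus not particular to Rpph1. In 129S1/SvImJ iWAT replicate 1, Rprl3 was 1320, Rpph1 13444 and Rmrp 19361, each the highest of its group. How evenly the mRNA libraries captured these RNAs was not tested, and the strain differences of Rpph1 and Rmrp carry that limit.

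**Figure D3:**
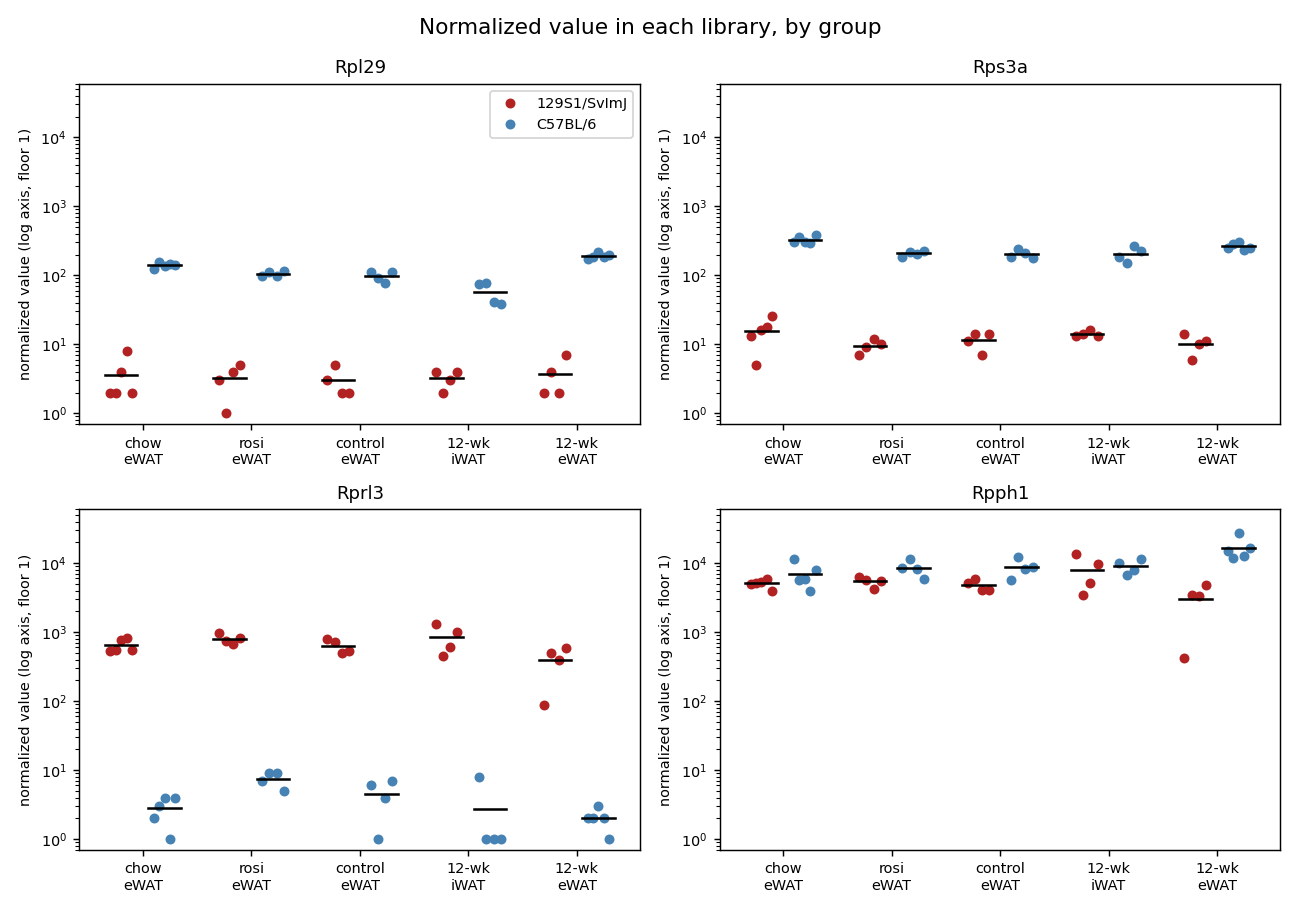
Normalized value (log axis) of Rpl29, Rps3a, Rprl3 and Rpph1 in each library. Each point is 1 library, the bar is the group mean, and each condition has 129S1/SvImJ at left and C57BL/6 at right. Rprl3 lies at 87 or above in 129S1/SvImJ and at 9 or below in C57BL/6, while Rpph1 lies at 3307 or above in all but 1 library.

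**Figure D4:**
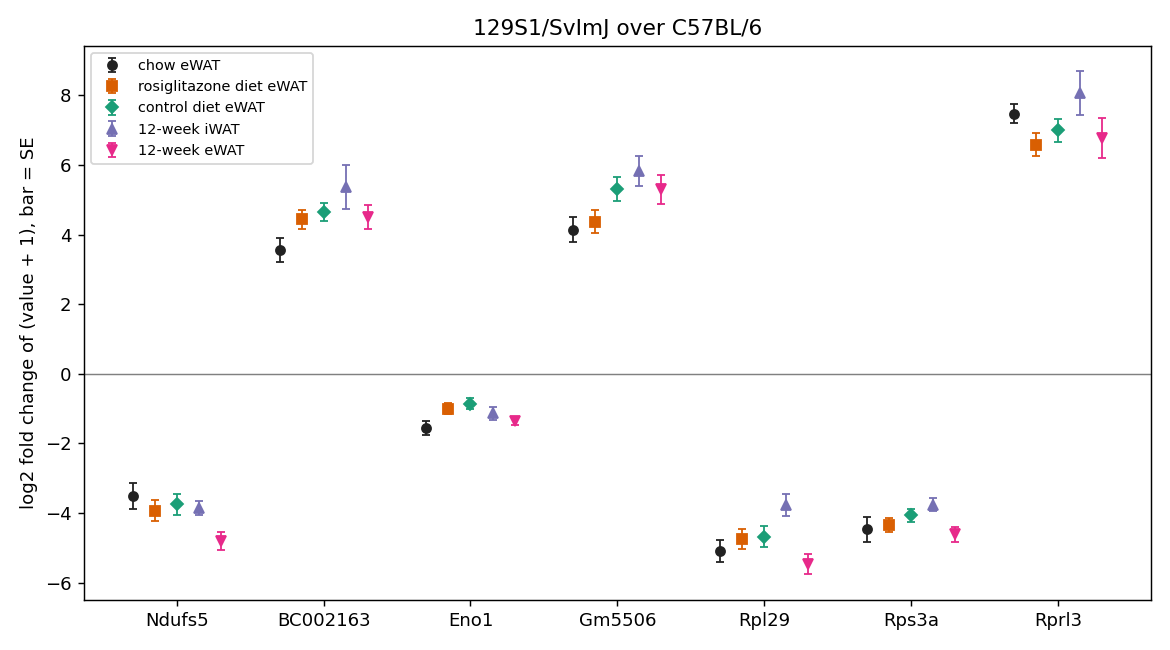
log2 fold change of value + 1, 129S1/SvImJ over C57BL/6, for the 7 genes in the 5 strain comparisons. Points are the limma estimates and bars are 1 SE. Each gene keeps its sign in all 5, and Eno1 lies nearest to 0, from -1.55 to -0.85.

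With rosiglitazone, tested within each strain, none of the 7 genes passed at a limma adjusted p under 0.05. Several had little level to test: in 129S1/SvImJ, Ndufs5 ranged from 2 to 8 and Rpl29 from 1 to 5 over the drug and control libraries, and in C57BL/6, BC002163 ranged from 2 to 8, Gm5506 from 1 to 12 and Rprl3 from 1 to 9. A fall could hardly show there, since the floor is 1, and the same holds for these genes between depots. Over all symbols 5.51% were called in 129S1/SvImJ and 2.43% in C57BL/6. At an unadjusted p under 0.05, none of the 7 passed in 129S1/SvImJ and 2 did in C57BL/6, Gm5506 with a log2 fold change of 0.82 ± 0.34 (SE; limma adjusted p = 0.259) and Rprl3 with 0.77 ± 0.32 (limma adjusted p = 0.280). Both are near the floor in that strain. Ndufs5 in C57BL/6 had a log2 fold change of 0.56 ± 0.30 (limma adjusted p = 0.433), and all 4 of its drug libraries, 79 to 90, were above all 4 of its control libraries, 51 to 61. Such a gap, in either direction, was seen for 5.97% of all symbols.

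Shares and sums of the pairs were compared by exact two-sided permutation tests, 16 in all over the drug and depot contrasts. The smallest p these allow is 0.0286 for 4 against 4 libraries and 0.0159 for 4 against 5, so a single result with no overlap could not pass after adjustment over the 16, and values are given here as descriptions. The BC002163 share was 96.7% ± 1.35 with rosiglitazone and 97.4% ± 1.17 without it in 129S1/SvImJ (SD, n = 4 each; exact permutation p = 0.571). The Gm5506 share was 48.3% ± 2.95 with rosiglitazone and 51.03% ± 1.66 without it in 129S1/SvImJ (SD, n = 4 each; exact permutation p = 0.200). The log2 Ndufs5 and BC002163 sum was 6.49 ± 0.08 with rosiglitazone and 5.94 ± 0.12 without it in C57BL/6 (SD, n = 4 each; exact permutation p = 0.0286; adjusted p = 0.229 over the 16). All 4 drug libraries were above all 4 control libraries there.

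Between depots, 1 of the 7 genes changed: Rpl29 fell in C57BL/6 iWAT, with a log2 fold change of -1.77 ± 0.30 (SE; limma adjusted p = 0.00181), iWAT over eWAT. Its values were 76, 77, 41 and 39 in iWAT, against 173, 184, 220, 183 and 198 in eWAT, with no overlap. In that contrast 13.1% of all symbols were called and 15.7% did not overlap, and in 129S1/SvImJ 1.72% were called and none of the 7 genes was. At an unadjusted p under 0.05, Rps3a passed in 129S1/SvImJ (limma adjusted p = 0.366) and Ndufs5 in C57BL/6, beside Rpl29. The iWAT libraries of this contrast are those with few distinct values and 32.1% to 37.7% of rows at the floor, whose part in the result was not tested.
Ndufs5 in C57BL/6 had 69, 61, 77 and 69 in iWAT, against 99, 107, 106, 92 and 108 in eWAT. These did not overlap, but the log2 fold change of -0.57 ± 0.24 (SE) did not pass (limma adjusted p = 0.143), and it did pass with a pseudocount of 8, at -0.52 (limma adjusted p = 0.00604). The log2 sum of Ndufs5 and BC002163 was 6.18 ± 0.16 in iWAT and 6.76 ± 0.12 in eWAT of C57BL/6 (SD, n = 4 and 5; exact permutation p = 0.0159; adjusted p = 0.229). In 129S1/SvImJ, where Rprl3 averaged 846 ± 390 in iWAT and 392 ± 217 in eWAT (SD, n = 4 each), the log2 fold change of 1.29 ± 0.62 (SE) did not pass (limma adjusted p = 0.395). Whether the 2 strains differed in their depot change was not tested.

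**Figure D5:**
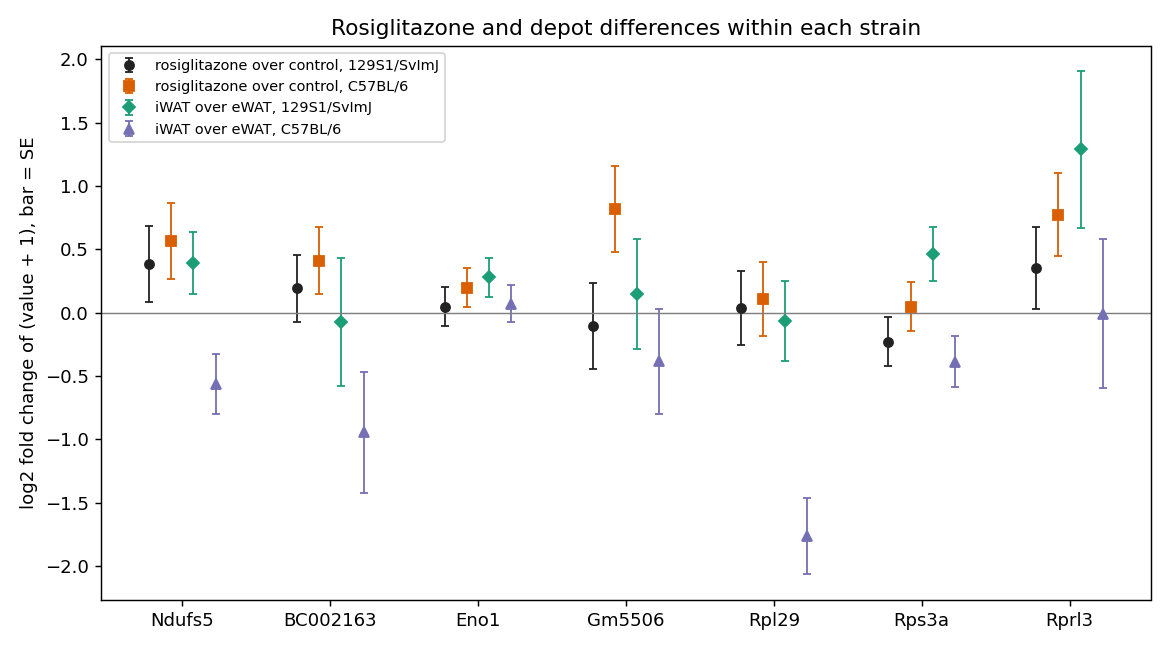
log2 fold change of value + 1 for the 7 genes, rosiglitazone over control diet and iWAT over eWAT, in each strain. Points are the limma estimates and bars are 1 SE. Rpl29 in C57BL/6 iWAT, at -1.77, is the only one that passed the test.

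The other genes of each pathway showed how the strains differed around these 7. Of 35 other complex I subunits, 4 were higher and 1 lower in 129S1/SvImJ on chow, 24 higher and 1 lower on the rosiglitazone diet, 27 higher and 1 lower on the control diet, none in iWAT, and 1 higher and 3 lower in 12-week eWAT (limma adjusted p under 0.05). Over all symbols the share called was 4.99% on chow, 10.7% on the rosiglitazone diet, 17.5% on the control diet, 1.69% in iWAT and 21.7% in 12-week eWAT. The subunits' median log2 fold change was 0.54 on the control diet, where that of all symbols was 0.01, and -0.17 in 12-week eWAT, where that of all symbols was 0. Ndufa11, an accessory subunit, rose to 259 on the control diet in 129S1/SvImJ, against 95 in C57BL/6 (log2 fold change 1.44 ± 0.17, SE). Ndufa12, another accessory subunit, fell to 24 on chow in 129S1/SvImJ, against 83.6 in C57BL/6, and to 32 in 12-week eWAT, against 98.2 in C57BL/6.
With rosiglitazone 9 of the 35 subunits rose in 129S1/SvImJ, where 5.51% of all symbols were called, and 6 in C57BL/6, where 2.43% were. None fell in either strain, with a median log2 fold change of 0.34 in 129S1/SvImJ and 0.37 in C57BL/6. Ndufs5 was not called in either strain, and neither were most of the 35 subunits. Its log2 fold change was 0.39 in 129S1/SvImJ, where it was near the floor, and 0.56 in C57BL/6.

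Of 21 other glycolysis genes, 6 were higher and none lower in 129S1/SvImJ on the rosiglitazone diet, 9 higher and 1 lower on the control diet, and 1 higher and 5 lower in 12-week eWAT. None was called on chow or in iWAT. Over all symbols the share called was 10.7% on the rosiglitazone diet, 17.5% on the control diet, 21.7% in 12-week eWAT, 4.99% on chow and 1.69% in iWAT. Aldoa, aldolase A, averaged 8832 on the control diet in 129S1/SvImJ, against 3743 in C57BL/6, a log2 fold change of 1.22 ± 0.13 (SE; limma adjusted p = 1.298e-06). In 12-week eWAT the same gene averaged 5327 in 129S1/SvImJ, against 8355 in C57BL/6, a log2 fold change of -0.67 ± 0.16 (limma adjusted p = 0.0246). The sign for Aldoa thus turned between experiments, which that of Eno1 did not. The 12-week eWAT comparison includes the C57BL/6 library high in skeletal muscle markers, whose part in these glycolysis values was not tested.

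Of 82 other ribosomal protein genes, 16 were higher and 4 lower in 129S1/SvImJ on chow, 4 higher and 5 lower on the rosiglitazone diet, 27 higher and 4 lower on the control diet, 3 higher and 3 lower in iWAT, and 12 higher and 17 lower in 12-week eWAT. The share called over all symbols was 4.99% on chow, 10.7% on the rosiglitazone diet, 17.5% on the control diet, 1.69% in iWAT and 21.7% in 12-week eWAT. Named members went both ways. Rpl3, of the large subunit, averaged 29.2 ± 7.53 on chow in 129S1/SvImJ and 208 ± 33.95 in C57BL/6 (SD, n = 5 each), a log2 fold change of -2.82 ± 0.20 (SE; limma adjusted p = 0.000446). Rpl30 averaged 26.6 in 129S1/SvImJ and 111 in C57BL/6 on chow, with a log2 fold change of -2.05 ± 0.19 (SE). Rpl15 was higher in 129S1/SvImJ, with 0.93 ± 0.10 on chow and 1.39 ± 0.19 on the control diet, and Rpl13 was higher in 12-week eWAT, with 1.93 ± 0.13 (SE; limma adjusted p = 0.000175). In the depot contrast of C57BL/6, where Rpl29 fell, 11 of the 82 rose and 18 fell, against 13.1% of all symbols called in either direction, with a median log2 fold change of -0.35 against 0 over all symbols.
A list of 14 measured genes of ribonuclease P and the related ribonuclease MRP included Rpph1, Rmrp and the Rpph1-like Rprl1 and Rprl2. Of the 14, none was called on chow, 2 were higher and 3 lower on the rosiglitazone diet, 4 higher and 3 lower on the control diet, 1 was higher in iWAT, and 2 were higher and 2 lower in 12-week eWAT. The iWAT call was Rprl1, averaging 3 in 129S1/SvImJ against 1 in C57BL/6. Rprl2 was called higher on the rosiglitazone diet (3.25 against 1) and in 12-week eWAT (9 against 1), also near the floor. Over all symbols the share called was 4.99% on chow, 10.7% on the rosiglitazone diet, 17.5% on the control diet, 1.69% in iWAT and 21.7% in 12-week eWAT. Rpp14, a protein subunit, averaged 184 on the control diet in 129S1/SvImJ and was higher there than in C57BL/6 (log2 fold change 0.87 ± 0.10, SE; limma adjusted p = 9.308e-06).

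Over the 43 libraries, the genes whose pattern was most like that of each member were found by Pearson correlation of log2 values centred within each experiment, among 13839 candidates. These are descriptions over libraries that share strain and normalization. The nearest to Ndufs5 were Acp1 (r = 0.976), Trim12a (0.969) and 2610507I01Rik (0.959). Acp1, a low molecular weight phosphatase, averaged 37.2 on chow in 129S1/SvImJ and 184 in C57BL/6. Rpl3 led for both Rps3a (r = 0.975) and Rpl29 (0.970), and Trim12a was second for each. For Eno1 the nearest were 2610507I01Rik (0.928), Trim12a (0.917) and Rpl3 (0.915).
Among the genes higher in 129S1/SvImJ, Mettl7a2 was nearest to Rprl3 (r = 0.971) and to Gm5506 (0.959). Mettl7a2 averaged 95.8 on chow in 129S1/SvImJ and 4.60 in C57BL/6. AB099516 (r = 0.956) and Hal (0.954), the histidine-degrading enzyme histidine ammonia-lyase, were nearest to BC002163. AB099516 and Mettl7a2 had nearly the same mean in every 129S1/SvImJ group, with 94.6 and 95.8 on chow. Whether these symbols count the same reads was not tested. Within the pairs, r was -0.922 between Ndufs5 and BC002163 and -0.847 between Eno1 and Gm5506. Members of different pairs had values as far below 0, with -0.946 between Ndufs5 and Rprl3, -0.933 between Ndufs5 and Gm5506 and -0.91 between Eno1 and Rprl3, so that nothing in r is particular to a parent and its copy. Some of these neighbours share sequence with other genes and others do not: 85.6% of Rpl3 windows, 54.1% of Mettl7a2 windows and 31.2% of Trim12a windows were shared, against 0.7% for Hal and none for 2610507I01Rik.

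Sequence sharing was also set against strain differences across the whole table, leaving out the 7 genes. Among symbols with a mean value of at least 5, those with at least 50% of windows shared numbered 253, and those with less numbered 14719. On chow 13.04% of the symbols with at least 50% shared were called, against 7.10% of the rest. The shares were 22.1% against 15.6% on the rosiglitazone diet, 31.2% against 25.6% on the control diet, 6.72% against 1.55% in iWAT, and 41.9% against 31.3% in 12-week eWAT. When symbols of every level were counted, 1000 had at least 50% of windows shared, and the order turned round in 4 of the 5 comparisons: 3.70% against 5.02% on chow, 6.00% against 10.9% on the rosiglitazone diet, 8.30% against 18.0% on the control diet, 2.20% against 1.63% in iWAT, and 11.9% against 22.2% in 12-week eWAT. A log2 fold change beyond 3 in either direction, which all members but Eno1 exceeded in every comparison, was found in 1.58% of the 253 on chow, against 0.258% of the rest, and in 0.791% of the 253, which is 2 genes, against 0.374% in 12-week eWAT. With the same minimum mean it was 0.791% against 0.197% on the rosiglitazone diet, 0.791% against 0.211% on the control diet and 1.98% against 0.346% in iWAT. These shares rest on few symbols: in iWAT 3 of the 253 were above 3 and 2 below -3. Over symbols of every level these shares were 0.4% against 0.176% on chow, 0.2% against 0.134% on the rosiglitazone diet and 0.2% against 0.143% on the control diet. They were 0.5% against 0.24% in iWAT and, in the other order, 0.2% against 0.254% in 12-week eWAT. The minimum mean was added after the counts over all symbols were seen, and no test of the difference was made. It kept 253 of the 1000 symbols with at least 50% shared and 14719 of the 21643 others. The lists were not matched for level, so a higher share called is not read as an effect of sequence sharing.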

How the data were processed

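mRNA libraries were made with the TruSeq kit and sequenced on an Illumina Genome Analyzer, per the labels' protocols. HOMER and the mouse build mm9 are named in the submitters' processing notes. The aligner, its treatment of reads that match several places, the read length and the counting rule are named in no source used here. The deposited values, a score rather than counts, are whole numbers with a floor of 1 that the authors normalized so that libraries of an experiment share their highest value and nearly their total (7518968 to 7526303 on chow, 5537632 to 5542536 in the drug experiment and 6757422 to 6769165 in the 12-week groups). The depth of each library is unknown, and levels are compared only within tables that were normalized together. The 12-week eWAT and iWAT tables share their highest value. Pairs of libraries had the same value at 26.6% to 62.3% of the 1000 top ranks between these tables, at 21.3% to 100% within the iWAT table and at 57.6% to 100% within the eWAT table. The authors' deposited log2 fold changes were read only as a check on direction, and none is reported.

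The members, lists and tests were chosen with earlier results of these data known. The row with the highest total stood for a symbol. log2(value + 1) was fitted with limma 3.58.1 (R 4.3.3; trend and robust options), separately for chow, the drug experiment, 12-week eWAT and 12-week iWAT, and for the 12-week groups together for depots. Calls were Benjamini-Hochberg adjusted p under 0.05 over all 22869 symbols. The fit was tested on simulated data. The count models foreseen were not used, since the values are not counts. Shares and sums were compared by exact permutation tests (scipy 1.17.1). Exact 50-base windows, and 36-base ones as an alternative, came from the GENCODE M21 transcripts of GRCm38, where 22651 symbols matched. Coordinates are not given because the files use mm9. Named genes were the members, up to 4 list genes per comparison with the smallest p among those called, and the 3 symbols with the most similar pattern.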

Additional observations from a re-analysis of the deposited data

Results flagged for a closer look

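In 120 sets of 4 or 5 libraries, 10 had a highest or lowest library farther from its neighbour, relative to the range, than Dixon's 95% critical value (0.829 for 4 libraries). Chance flags about 1 in 20 sets. Of these, 6 lay in C57BL/6 iWAT, the group with 32.1% to 37.7% of rows at the floor. There BC002163 was 9 in replicate 4 and 1 in the other libraries, and Gm5506 was 5 in replicate 4 and 1 in the others. The same replicate had a BC002163 share of 11.5% and a Gm5506 share of 1.11%, the highest of the group. Rprl3 was 8 in C57BL/6 iWAT replicate 1 and 1 in the others, and its value per 1000 of Rpph1 was 0.793 in that library.

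The other sets were as follows. Ndufs5 was 6 in 129S1/SvImJ 12-week eWAT replicate 2 and 2 in the other libraries. The Eno1 and Gm5506 sum was 225 in C57BL/6 rosiglitazone replicate 2, the lowest of its group. Rprl3 per 1000 of Rpph1 was 132 in 129S1/SvImJ rosiglitazone replicate 2, the lowest of its group, and 1.09 in C57BL/6 rosiglitazone replicate 3, the highest of its group.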

How the results depend on the processing

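The signs of the 35 strain differences of the 7 genes were kept under every alternative: a filter on low values, every transcript row, recentring on library medians (which moved no member by over 0.02 log2), a replicate block and leaving out each library. A pseudocount of 8 made 29 of the 35 smaller by more than the spread between libraries, with log2 fold changes of -3.34 to -2.49 for Ndufs5, 2.86 to 3.63 for BC002163, 3.06 to 3.98 for Gm5506, -4.10 to -2.51 for Rpl29, -3.91 to -3.25 for Rps3a and 5.04 to 6.24 for Rprl3. Of the 28 drug and depot results of the 7 genes, the call of Rpl29 between depots in C57BL/6 was kept throughout (limma adjusted p = 8.705e-05 to 0.018). Beside Ndufs5 with a pseudocount of 8, BC002163 between depots in C57BL/6 passed without C57BL/6 iWAT replicate 4, with -1.52 (limma adjusted p = 0.0118; 0.0118 to 0.543 over its alternatives). The 16 tests of shares and sums could hardly pass after adjustment, and say nothing on stability.

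Replicate numbers were not treated as pairs in the main fits. Same-numbered libraries correlated over 0.1 in 3 of 4 pairs in iWAT (r from -0.145 to 0.428), 3 of 5 on chow (r from -0.396 to 0.357) and fewer elsewhere. A shared batch by number is thus not excluded in iWAT and on chow. With a replicate block the count of symbols called between the strains was 252 on chow (1142 without), 1277 in 12-week eWAT (4973 without) and 30 in iWAT (387 without), and 256 between depots in 129S1/SvImJ (393 without). No drug or depot call of the 7 genes changed under the block, while Rpph1 lost its 12-week eWAT call (limma adjusted p = 0.157), gained one on the rosiglitazone diet (limma adjusted p = 0.0262) and kept that on the control diet (limma adjusted p = 0.00309). In iWAT a pseudocount of 8 gave 220 symbols and the low-value filter 249.

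Leaving out 1 library gave 655 to 2564 symbols on chow (2564 without 129S1/SvImJ replicate 2, and 2597 without replicates 1 and 2, an alternative chosen after seeing the data), 3132 to 4072 on the control diet, 1614 to 2664 on the rosiglitazone diet, 3853 to 5123 in 12-week eWAT and 68 to 194 in iWAT. It gave 788 to 1158 for rosiglitazone in 129S1/SvImJ, 275 to 741 in C57BL/6, 231 to 435 between depots in 129S1/SvImJ and 2226 to 3130 in C57BL/6.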
